A study of Mus musculus with 2 samples.

Results

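The genes described here are 10 whose products reseal or protect the muscle cell membrane: the ferlins Dysf and Myof, the muscle repair factors Trim72, Ano5 and Capn3, the annexins Anxa1, Anxa2, Anxa5 and Anxa6, and the annexin partner S100a10. They were chosen by gene symbol, and all 10 had a row among the 21829 genes of the C2C12 tables. C2C12 is an immortalised mouse myoblast line. It was sequenced as 2 libraries of polyadenylated RNA, 1 from WT cells and 1 from Gne KO cells, a line grown from a single cell after CRISPR–Cas9 editing left an indel in exon 2 of Gne, the gene of the enzyme that starts sialic acid synthesis. The study calls both lines myoblasts, and markers of cell type are given below. Both were grown in the same serum-containing medium, and no treatment distinguishes them. With 1 library per line, no difference below has a replicate check, and what the edit did cannot be told apart from what sets a single clone apart from its parent line.

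When a muscle cell membrane tears, calcium enters through the wound. Ferlins, large proteins with several calcium-binding C2 domains, are known to act in the fusion of vesicles with the membrane at the wound. Trim72, also called MG53, brings vesicles to the site, and annexins bind exposed phospholipid in the presence of calcium and form a cap over the tear. S100a10 binds Anxa2 and forms a complex with it that links membranes. Capn3 is a calcium-activated protease of muscle, and Ano5 is a membrane protein related to lipid scramblases. Loss of dysferlin, anoctamin 5 or calpain 3 is known to cause limb-girdle muscular dystrophy in humans.

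Values are FPKM, sequenced fragments divided by transcript length and library depth, a unit inferred from the tables, and can be compared between genes because length is divided out. Differences are given as log2((KO + 1)/(WT + 1)), in which positive values are higher in the library labelled KO. A gene passed the filter when the mean of its 2 values was at least 1 FPKM, and a change was counted when it was more than 2-fold, a log2 difference beyond 1. The filter kept 10542 genes, whose median log2 difference was 0.0061 and whose interquartile range ran from -0.21 to 0.23. Gne itself was 6.67 FPKM in WT against 7.34 FPKM in the library labelled KO. An indel need not lower the RNA, so this level does not check the labels. The values came from an estimated 28000000 fragments in WT and 25200000 fragments in the library labelled KO, if the unit is FPKM, figures that rest on the smallest steps between values.

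The 10 genes fell into an abundant and a scarce part in both libraries. S100a10, the 4 annexins and Myof lay between 43.1 and 1518 FPKM in both libraries, whereas Capn3, Dysf, Trim72 and Ano5, the genes best known from differentiated muscle fibres, lay between 0 and 1.14 FPKM. Of the 10 genes 7 passed the filter, and Dysf, Trim72 and Ano5 did not. None of the 7 changed more than 2-fold, against a background of 6.27% of all genes past the filter, 2.84% in the higher direction and 3.43% in the lower. Counting differences of any size, Anxa1, Anxa2 and Anxa5 were the 3 with higher values in the library labelled KO, and S100a10, Anxa6, Myof and Capn3 the 4 with lower values. By the same count 50.7% of all genes past the filter lay above their WT value and 49.3% below it. The median log2 difference of the 7 was -0.05.

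**Figure D1:**
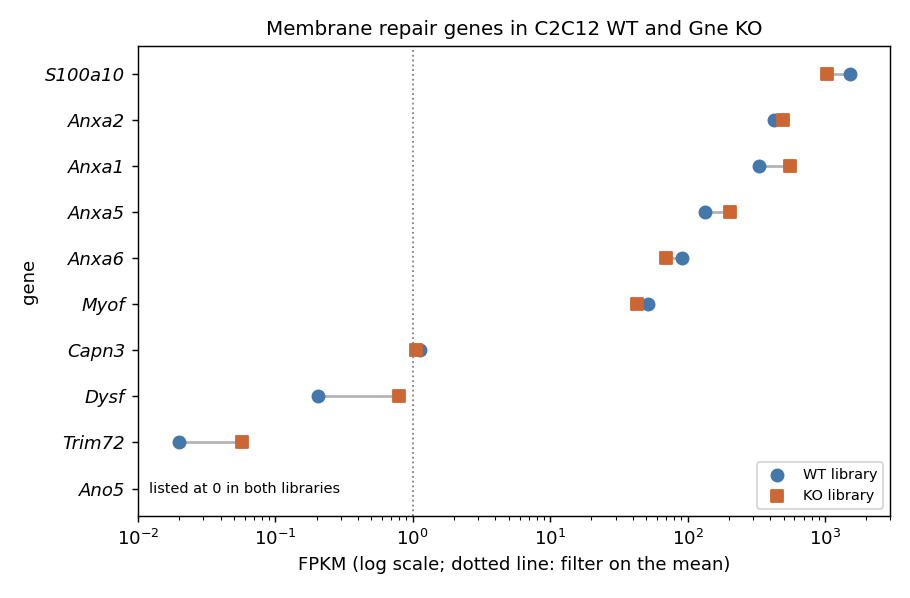
Level of each membrane repair gene in FPKM on a log axis, with the WT library as a circle and the library labelled KO as a square, 1 library each and no error bars. S100a10 is highest at 1518 and 1033 FPKM, Dysf and Trim72 lie below the dotted line at 1 FPKM in both libraries, and Ano5 is listed at 0 in both.

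Among the 7 members past the filter, the annexins Anxa1 and Anxa5 had the largest differences towards higher values. Anxa1, which binds membranes in a calcium-dependent way and is also known for limiting inflammation, was 333 FPKM in WT and 555 FPKM in the library labelled KO. This is 1.67 times the WT value and a log2 difference of 0.74. Of all genes past the filter 10.5% differed by more in either direction, and so did 7.12% of the 1853 most abundant, those whose mean was 50 FPKM or more. Anxa5, which assembles into flat arrays on membranes rich in phosphatidylserine, was 134 FPKM in WT and 204 FPKM in the library labelled KO. This is 1.52 times the WT value and a log2 difference of 0.60. Of the genes past the filter 14.4% differed by more in either direction, and so did 9.28% of the 1853 most abundant. At a smaller limit of 1.5-fold, set after the values were seen, Anxa1 and Anxa5 were the 2 members counted as higher and 0 were counted as lower. Over all genes past the filter the shares were 7.68% and 7.5%. Anxa5, at 1.52-fold, lay just past this limit, and S100a10, lower by 1.47-fold, just short of it, so the split depends on where the limit was set.

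Anxa2, the annexin that pairs with S100a10, differed less. It was 428 FPKM in WT and 496 FPKM in the library labelled KO, for a log2 difference of 0.212. This lies inside the interquartile range of all genes past the filter. It lies just above that of the 1853 most abundant genes, which ran from -0.154 to 0.204. Anxa2 was thus above Anxa1 in the WT library and below it in the library labelled KO, with 0.778 times as much Anxa1 as Anxa2 in the former and 1.12 times in the latter. Anxa6, the large annexin with a duplicated core, went the other way. It was 90.8 FPKM in WT and 70.3 FPKM in the library labelled KO, for a log2 difference of -0.37. Of the genes past the filter 29.5% differed by more in either direction, and so did 22.8% of the 1853 most abundant. There was 1.48 times as much Anxa5 as Anxa6 in WT, against 2.90 times in the library labelled KO.

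The promoters of the 3 annexins with higher values are shown so that their start regions can be compared. Each is the stretch of 250 bases before the RefSeq transcription start on GRCm38.p6, read 5′ to 3′ on the strand of the gene, and capitals mark matches on either strand to the motifs searched. These were the TATA box, spelled TATAAA, the GC box, spelled GGGCGG, the CCAAT box, the E-box, spelled CANNTG, the AP-1 site, spelled TGANTCA, and the TEAD site, spelled CATTCC. The E-box form CAGCTG was also counted, and each of its matches is an E-box match too. Anxa1 lies on the minus strand of chr19:20390672-20390921, Anxa2 on the plus strand of chr9:69453433-69453682 and Anxa5 on the minus strand of chr3:36475888-36476137.
Anxa1: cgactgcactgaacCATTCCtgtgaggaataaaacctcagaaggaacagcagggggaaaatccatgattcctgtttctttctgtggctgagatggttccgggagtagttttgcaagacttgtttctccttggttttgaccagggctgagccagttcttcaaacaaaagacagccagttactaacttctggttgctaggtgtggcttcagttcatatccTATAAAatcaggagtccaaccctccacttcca
Anxa2: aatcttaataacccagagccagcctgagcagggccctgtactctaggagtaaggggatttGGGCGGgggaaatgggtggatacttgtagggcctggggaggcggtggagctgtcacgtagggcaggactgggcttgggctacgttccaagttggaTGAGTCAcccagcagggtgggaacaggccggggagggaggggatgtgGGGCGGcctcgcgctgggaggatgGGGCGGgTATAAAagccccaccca
Anxa5: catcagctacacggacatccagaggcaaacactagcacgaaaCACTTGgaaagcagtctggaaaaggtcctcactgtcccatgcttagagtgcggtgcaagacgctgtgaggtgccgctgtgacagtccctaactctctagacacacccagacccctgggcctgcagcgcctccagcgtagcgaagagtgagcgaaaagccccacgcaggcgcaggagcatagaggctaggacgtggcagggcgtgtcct
Anxa1 has 1 TATA box, from 32 to 27 bases before its start, and 1 TEAD site. Anxa2 has 1 TATA box, from 17 to 12 bases before its start, 3 GC boxes and 1 AP-1 site. Anxa5 has neither a TATA box nor a GC box and holds 1 E-box. Of 32851 such windows in RefSeq, 12.4% hold the TATA box, 32.7% the GC box, 6.75% the AP-1 site, 12.6% the TEAD site and 66.2% the E-box, 13% in the form CAGCTG. The GC content was 46.0% for Anxa1, 62.4% for Anxa2 and 58.8% for Anxa5, against a median of 52.4% over all windows. No motif of those searched was found in all 3 windows. S100a10, at chr3:93555117-93564645, and Anxa6, at chr11:54978953-55033471, had no entry in the promoter table.

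S100a10, the light chain of the Anxa2 complex, was the most abundant of the 10 genes and had the largest difference towards lower values among the 7 past the filter. It was 1518 FPKM in the WT library, rank 51 of all genes, and 1033 FPKM in the other, rank 80. Its log2 difference was -0.56, and 16.5% of the genes past the filter differed by more in either direction. Among the 1853 most abundant genes, 11.3% did. Because Anxa2 was slightly higher and S100a10 lower, S100a10 stood at 3.55 times Anxa2 in WT and at 2.08 times Anxa2 in the library labelled KO. RNA levels do not tell how much of the complex was formed.

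**Figure D2:**
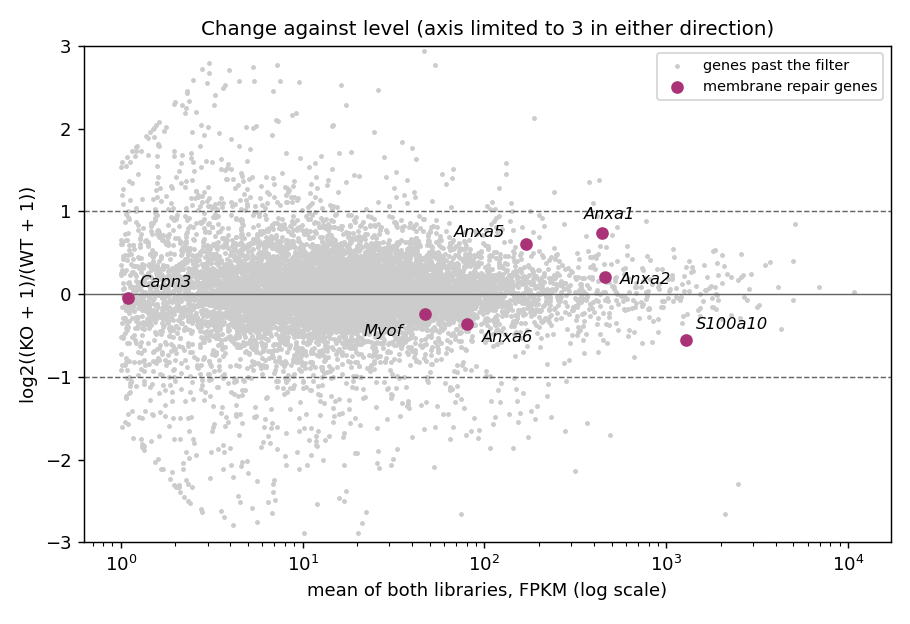
Log2 difference between the libraries against the mean level in FPKM (log axis) for genes past the filter in grey and the 7 membrane repair genes past it in purple, with dashed lines at 2-fold and 49 genes beyond a log2 difference of 3 not drawn. Anxa1 at 0.74 and S100a10 at -0.56 lie towards the edges of the grey cloud for genes of high level, and no membrane repair gene crosses a dashed line.

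Over the whole annexin family the summed level was higher in the library labelled KO. The values of Anxa1, Anxa2, Anxa5 and Anxa6 summed to 986 FPKM in WT and 1325 FPKM in the library labelled KO. Those of all 11 annexins with a row summed to 1292 and 1608 FPKM. The higher sum came from Anxa1, Anxa2 and Anxa5, since the 7 annexins outside the members summed to 306 FPKM in WT and 283 FPKM in the library labelled KO. Anxa1 made up 25.8% of this sum in WT against 34.5% in the library labelled KO, while Anxa2 went from 33.1% to 30.8% and Anxa6 from 7.03% to 4.37%. Of the 6 other annexins past the filter, 2 were higher, Anxa3 and Anxa11, and 4 were lower, with log2 differences between -0.32 and 0.17 and a median of -0.24. Anxa4, highest of them by the mean of both libraries, was 117 FPKM in WT and 94.1 FPKM in the library labelled KO. Anxa3 was below it in WT, at 95.4 FPKM, and above it in the library labelled KO, at 108 FPKM. Anxa10 was listed at 0 in both libraries, and Anxa13 was not analysed here.

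Of the ferlins, Myof was among the abundant members and Dysf among the scarce ones. Myof, the ferlin of myoblasts with roles in fusion and membrane traffic, was 51.3 FPKM in WT and 43.1 FPKM in the library labelled KO. On the log2 scale the difference was -0.25, and 45.7% of the genes past the filter differed by more in either direction. Dysf, the ferlin of mature fibres whose loss impairs resealing, was 0.206 FPKM in WT and 0.790 FPKM in the library labelled KO. This ratio of 3.83 was the largest of any member, but both lay below 1 FPKM and the gene did not pass the filter. On the log2(value + 1) scale its difference was 0.57, and with a pseudocount of 0.1 it was 1.54. For a transcript of 7081 bases, these levels correspond to an estimated 41 fragments in WT and 141 fragments in the library labelled KO. Myof exceeded Dysf 249 times in the WT library and 54.5 times in the library labelled KO, so Myof remained the predominant ferlin transcript in both.

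The start regions of the ferlins are shown because their levels differed most among the members of 1 family here. Myof lies on the minus strand of chr19:38043578-38043827, in a window and with capitals as above. For Dysf 2 starts were listed on the plus strand, with windows at chr6:84008348-84008597 and chr6:84019136-84019385. RefSeq places the beginning of the Dysf gene at 84008361, inside the first window. Most of that window and all of the second thus lie within the annotated gene, and neither is the stretch before its first base.
Myof: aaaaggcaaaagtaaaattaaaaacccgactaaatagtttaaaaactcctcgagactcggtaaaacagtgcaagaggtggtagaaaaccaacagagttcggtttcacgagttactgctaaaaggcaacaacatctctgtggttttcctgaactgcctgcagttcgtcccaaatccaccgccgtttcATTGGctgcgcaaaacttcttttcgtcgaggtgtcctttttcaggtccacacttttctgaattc
Dysf, upstream start: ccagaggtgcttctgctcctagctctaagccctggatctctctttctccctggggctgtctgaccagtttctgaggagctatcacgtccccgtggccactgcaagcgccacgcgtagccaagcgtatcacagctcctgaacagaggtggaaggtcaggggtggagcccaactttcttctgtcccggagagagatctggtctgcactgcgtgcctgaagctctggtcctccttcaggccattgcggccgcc
Dysf, downstream start: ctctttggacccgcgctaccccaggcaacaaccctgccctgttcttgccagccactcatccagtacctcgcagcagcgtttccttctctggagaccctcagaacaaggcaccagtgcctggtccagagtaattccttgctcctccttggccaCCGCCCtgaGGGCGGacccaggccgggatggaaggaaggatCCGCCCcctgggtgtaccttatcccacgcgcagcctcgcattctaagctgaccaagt
Myof holds 1 CCAAT box, found in 33.8% of all windows, and the downstream Dysf window holds 3 GC boxes. The upstream Dysf window holds no match to the motifs searched, and none of these 3 windows holds an E-box. Their GC content was 42.8% for Myof and 60% and 61.2% for Dysf. The deposited values give 1 level per gene and do not say which Dysf start was used.

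Of the muscle repair factors, Capn3 alone passed the filter, at 1.14 FPKM in WT and 1.06 FPKM in the library labelled KO, for a log2 difference of -0.05. Trim72 was 0.020 FPKM in WT and 0.057 FPKM in the library labelled KO. With a transcript of 3178 bases this corresponds to about 2 and 5 fragments, too few to say whether the libraries differ. Ano5 was listed at 0 in both. Dysf aside, the scarce members thus gave no difference that this depth could show. The E-box, bound by myogenic factors such as Myod1, was found 3 times in the window of Trim72, once in that of Ano5 and once in each of the 2 Capn3 windows. The Trim72 window begins at chr7:128004128 and the Ano5 window at chr7:51510779, whereas RefSeq places the beginnings of these plus-strand genes at 128003462 and 51510007. Both windows, and the second of Capn3, thus lie inside the annotated genes. These matches are a description, since 66.2% of all windows hold the motif.

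Genes with related functions were read from lists by symbol: other annexins, ferlins, anoctamins, calpains with calpastatin, S100 proteins, repair partners with vesicle fusion genes, and the ESCRT machinery that pinches off damaged membrane. Of 84 such genes with a row, 57 passed the filter. Of these, 0 were counted as higher and 2 as lower, Ano1 and S100a16, beside the background of 2.84% and 3.43%. The median log2 difference of the 57 was -0.09.

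Among the relatives of Dysf and Myof, Otof and Fer1l4 were listed at 0 in both libraries, and Fer1l5 and Fer1l6 reached at most 0.079 FPKM. Among the anoctamins, Ano6, a phospholipid scramblase of many cell types, was 38.8 FPKM in WT and 39.8 FPKM in the library labelled KO. Ano1, a calcium-activated chloride channel, was 3.39 FPKM in WT and 0.016 FPKM in the library labelled KO, for a log2 difference of -2.11. This corresponds to an estimated 438 fragments against 2. Ano6 was the highest anoctamin in both libraries, but not the only one well above the filter. Ano10 was 20.2 FPKM in WT and 28.2 FPKM in the library labelled KO, and Ano8 was 17.1 and 13.3 FPKM, both named after their values were seen. Ano5 was not detected beside them.

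Of the calpain list 9 of 15 genes passed the filter, 3 higher and 6 lower, with a median of -0.16. Capns1, the small subunit shared by the common calpains, was 240.0 FPKM in WT and 210.9 FPKM in the library labelled KO. Capn6, named after its value was seen, had the largest difference of the list, from 9.52 to 17.8 FPKM and 0.84 on the log2 scale. The muscle calpain Capn3 was thus far below the common calpains in both libraries.

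Of the other S100 genes 7 of 15 passed the filter, with a median of -0.14. S100a4 was the most abundant of all genes, at 10643 FPKM in WT and 10861 FPKM in the library labelled KO. S100a11, which pairs with Anxa1, was 1877 FPKM in WT and 1688 FPKM in the library labelled KO, for a log2 difference of -0.15. Its values are given after they were seen, beside the -0.56 of S100a10. S100a16 was 29.8 FPKM in WT and 4.92 FPKM in the library labelled KO, for a log2 difference of -2.38.

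Of 15 partners of the repair proteins past the filter, 0 differed by more than 2-fold, against 6.27% of all genes past it. By any amount 8 were higher and 7 lower, with a median of 0.05 and a range from -0.74 to 0.48. Cavin1, which holds caveolae in shape and binds Trim72, was 220.1 FPKM in WT and 227 FPKM in the library labelled KO. Ahnak, a very large protein that binds dysferlin and the Anxa2 complex, was 63.6 and 70.3 FPKM, and Ahnak2 had the lowest log2 difference, -0.74. Cav3, the muscle caveolin, was listed at 0 in both libraries, like Ano5. Of 16 ESCRT genes past the filter, 5 lay above their WT value and 11 below it, with a median of -0.09. Over all genes past the filter 50.7% lay above and 49.3% below. Chmp4b, a filament-forming subunit, was 91.1 FPKM in WT and 83.0 FPKM in the library labelled KO. Ahnak, Ahnak2 and Cav3 are named after their values were seen.

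**Figure D3:**
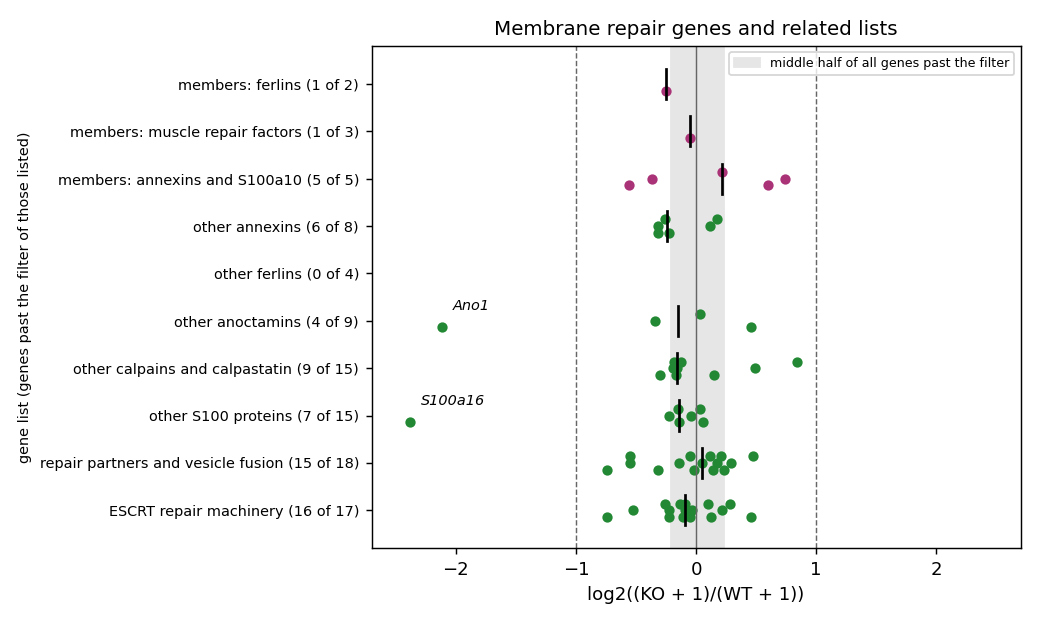
Log2 difference of each gene past the filter, by list, with members in purple, related genes in green, a black bar at each median, dashed lines at 2-fold and the middle 50% of all genes past the filter shaded. Only Ano1 at -2.11 and S100a16 at -2.38 lie beyond 2-fold, and the annexins and S100a10 spread from -0.56 to 0.74.

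Each member was also set beside its chromosomal neighbours, the genes past the filter no more than 5 Mb away. Across all genes past the filter 50.7% were higher in the library labelled KO. Anxa2 had a log2 difference of 0.21, below the 0.29 of its 53 neighbours on chromosome 9, of which 40 were higher in the library labelled KO. Anxa5 had 0.60 beside 0.25 for 33 neighbours on chromosome 3, of which 27 were higher. Anxa1 had 0.74 beside 0.12 for 23 neighbours on chromosome 19. The neighbours of S100a10, Anxa6 and Myof had medians of 0.0010, -0.04 and -0.03, close to 0, beside -0.56, -0.37 and -0.25 for the genes themselves. Capn3 had -0.05 beside -0.14 for 79 neighbours on chromosome 2, of which 28 were higher. Subtracting the neighbours left 0.62 for Anxa1, 0.35 for Anxa5 and -0.07 for Anxa2.

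**Figure D4:**
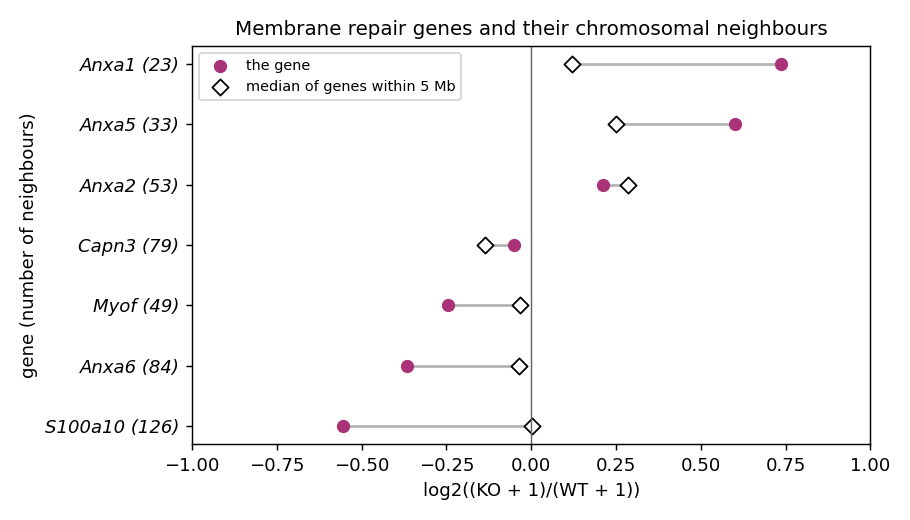
Log2 difference of the 7 membrane repair genes past the filter (purple) and the median of their neighbours no more than 5 Mb away (white diamonds), with the number of neighbours in brackets. Anxa1, Anxa5, Anxa6, Myof and S100a10 lie farther from 0 than their neighbours, and Anxa2 and Capn3 lie nearer to 0 than theirs.

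Markers of cell type moved between the libraries alongside these values. In bulk RNA, fewer cells of a type and less RNA per cell cannot be told apart. Of 6 myoblast markers 5 passed the filter, 4 of them counted as lower and 1, Myf5, as higher. Over all genes past the filter 3.43% were counted as lower and 2.84% as higher. The summed level of the myoblast markers was 199 FPKM in WT and 25.8 FPKM in the library labelled KO. Myf5 was 9.14 FPKM in WT and 20.3 FPKM in the library labelled KO. Pax7 was listed at 0 in both, and Myod1 in the library labelled KO. Of 7 fibroblast markers 4 passed, 3 of them counted as higher, and the sum was 259 FPKM in WT and 942 FPKM in the library labelled KO, with Thy1 and Lum at 0 in both. The 11 markers of differentiated muscle summed to 9.58 and 6.76 FPKM, and the 2 of them that passed went opposite ways. Tnnc1, at 6.66 FPKM in WT against 2.74 in KO, was counted as lower, with a log2 difference of -1.03. Acta1, at 1.84 FPKM in WT against 3.93 in KO, had a log2 difference of 0.79 and was not counted as changed. The 5 leukocyte markers summed to 3.10 and 1.58 FPKM with Ptprc and Adgre1 at 0, the 4 endothelial markers to 0.010 and 0.028 FPKM with Cdh5 and Kdr at 0, and the 3 adipocyte markers to 0 and 0.321 FPKM with Adipoq and Plin1 at 0 in both. The part of these shifts in the values of the membrane repair genes was not tested.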

How the data were processed

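RNA sequencing of 2 C2C12 libraries was used, grouped as WT and KO by the sample titles. The authors deposited a gene symbol and a value for each library, with no unit in the files. The deposited values were taken as FPKM because they sum to 568543 in WT and 574253 in KO, where TPM over all genes would sum to the same total in each. The study's methods name TPM from RSEM, so TPM with some genes left out remains possible. Those methods give trimming with TrimGalore and alignment by STAR to GRCm39. The submitters' processing notes list Trim Galore 0.6.6, STAR 2.7.9a, RSEM 1.3.3 and the GRCm38 build, and the sources also differ in library kit and sequencer.

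Symbols repeated in 24 of 21853 rows were reduced to the row of higher mean. The pseudocount was 1 and the filter a mean of 1 FPKM or more. With 1 library per line there was no test and no p-value. The worth of 1 fragment was the median of value times length, between 0.02 and 0.05, over 45 genes in WT and 49 in KO that have a single GENCODE vM39 transcript of at least 1500 bases. Estimated fragments for other genes used the canonical transcript, and counting error alone is covered. Positions and promoters came from RefSeq tables for GRCm38.p6, which matched 20844 of 21829 symbols, and promoters were found for 8 of the 10 members. Members and lists were chosen with earlier results of these data known. Named genes were the members, related genes past 2-fold and the most abundant of each list, and any other related gene was named after its value was seen. Calculations were tested on simulated data with large changes planted in well-expressed genes and counting error only. Such data do not check differences as small as those of the members past the filter, or values below it. Python 3.11.15, numpy 2.4.6, pandas 2.3.3 and matplotlib 3.10.9 were used.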

Additional observations from a re-analysis of the deposited data

How the results depend on the processing

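No paired analysis was possible because each group has a single library and nothing was tested. For the same reason no library could be left out. Single genes and medians of lists were taken as moved beyond 0.44, the width of the interquartile range of the log2 differences, and counts beyond 1.5 times. The counts past 2-fold over all genes, 299 higher and 362 lower, were 102 and 176 under a pseudocount of 5. Under a filter at 5 FPKM, which leaves fewer genes, they were 145 and 221. Of 40 alternative values for the members, 39 stayed within this limit, and Dysf moved from 0.57 to 1.54 with a pseudocount of 0.1, as low values do. The count does not measure stability, because pseudocounts and scaling can shift abundant genes only slightly. The limit is also wider than the whole differences of Anxa2, Anxa6, Myof, Capn3 and Trim72. Subtraction of the neighbours' median changed the sign of 3 members, Anxa2 to -0.07, Capn3 to 0.09 and Trim72 to -0.04. Without a filter the median of the 10 members was 0.03 and that of the ferlins 0.16, and under the filter at 5 FPKM that of the other anoctamins was 0.04, all opposite in sign to the values with the filter. Median-of-ratios scaling, with a factor of 1.005, changed no direction of a member.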

Other observations

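S100a16, chosen here after its value was seen, lies among other S100 genes on chromosome 3 that differed little. Its log2 difference of -2.38 stood beside -0.23 for S100a13, 0.05 for S100a1, -0.14 for S100a3, 0.03 for S100a4 and -0.05 for S100a6, all within the same stretch. The 118 genes past the filter within 5 Mb had a median of 0.03, and 4 of them were more than 2-fold lower. Of the related genes below the filter, Syt7, a calcium sensor of lysosome fusion, was 0.155 FPKM in WT and 0.010 FPKM in the library labelled KO, an estimated 32 fragments against 2. Fer1l6 was 0.010 FPKM in WT and 0.079 FPKM in the library labelled KO, an estimated 2 fragments against 11.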
